A study of Rattus norvegicus with 12 samples.

Results

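Interleukin-1 (IL-1) family genes were followed across bone marrow cell cultures from rats with and without spinal cord injury. The 9 genes were Il1a, Il1b, Il18, Il1rn, Il1r1, Il1rap, Il1r2, Il1rl1 and Casp1, taken by gene symbol. They and the gene lists used below were chosen with earlier results of these data known. Each had 1 probe, so they make up 9 of the 22523 probes and 9 of the 21684 genes of the array. A probe was called detected in a pool where its detection p, which sets it against the negative controls of its array, was at most 0.01 on both arrays. By that measure 7 of the 9 genes were detected in at least 1 pool, and Il1r1 and Il1rap in none.

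The animals were male Wistar-Hannover rats, and no age is stated for them. In the spinal cord injury (SCI) groups the cord was transected. In the group that also had functional electrical stimulation (SCI+FES), in which implanted electrodes make paralysed muscle contract, the stimulator was placed in week 14 after injury and stimulation began in week 16. It ran for 60 minutes a day on 7 days, with 2 s of contraction and then 18 s without, at 40 Hz and 1.5 V. SCI animals without stimulation also had the implant surgery, with removal of the gastrocnemius muscle, in week 14, and were collected in week 17. Sham animals had the spinal surgery without transection and were collected 12 to 14 weeks later, and the labels give no implant for them. The labels give no collection week for SCI+FES animals, but their stimulation began in week 16, later than the sham collection. SCI therefore cannot be told apart from the implant surgery and the later collection in any comparison with sham. Marrow of the tibia and femur was grown to osteoblasts, which build bone, or to osteoclasts, which resorb it. The labels give culture day 10 for osteoblast cultures and day 3 for osteoclast cultures of sham and SCI+FES rats, while the SCI osteoclast culture has no day. For each of the 6 combinations of treatment and culture, RNA of 3 to 4 animals was pooled and hybridised to 2 arrays, which gives 12 arrays on 1 chip. The SCI osteoclast pool and both SCI+FES pools carry 1 label number, the sham pools share another, and the SCI osteoblast pool has its own, and whether any pools share animals is not stated. The 2 arrays of a pool are technical duplicates, which leaves n = 1 pool for every treatment and culture type.

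IL-1 alpha and IL-1 beta signal through the receptor IL-1R1 and its accessory protein, which recruit MyD88 and the IRAK kinases and turn on NF-kB. The pathway is held back at several points, by the receptor antagonist encoded by Il1rn and by the decoy receptor encoded by Il1r2, and IL-1 beta and IL-18 need to be cut by caspase-1 before release. In bone, IL-1 is known to promote the formation and activity of osteoclasts, while IL-18 has been described as restraining it.

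Between 33.7% and 38.3% of probes were detected per array, and the correlation across genes between the 2 arrays of a pool was 0.992 to 0.995, where genes are not replicates. The pooled SD of duplicate arrays was 0.10 on the log2 scale, and 1 gene in all differed 2-fold between duplicates, in the sham osteoclast pool. Overall brightness differed between pools, with an upper quartile of the deposited intensities from 84.9 in the SCI+FES osteoclast to 204.5 in the sham osteoblast arrays, which the normalisation sets equal. Osteoclast markers were higher in the osteoclast than in the osteoblast cultures for 9 of 10 markers tested, and osteoblast markers lower for 6 of 7, by the limma test described below for culture type. Over all genes tested 5.53% were higher and 7.50% lower. The osteoblast transcription factors Sp7 and Runx2 were not detected in any pool. Macrophage markers were present in both kinds of culture, with all 15 measured markers detected in every osteoblast pool and 14 of 15, all but Cd163, in every osteoclast pool. Their levels differed, with 2 of 15 (Itgam and Tyrobp) higher in osteoclast cultures by the same limma test and 5 lower. The lower ones were C1qa, C1qb and C1qc, by 3.04, 3.03 and 3.02 on the log2 scale, Cd163 and Mrc1. In bulk RNA of this kind, fewer cells of a type and less RNA per cell cannot be told apart.

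Levels below are normalised log2 intensities, given for array 1 and array 2 of a pool, and differences are between pool means on the same scale ± the standard error over duplicate arrays. That error covers the arrays and not the animals. With 1 pool on each side the treatment comparisons have no test. Instead a size rule was used to name a gene as higher or lower. It required pool means 2-fold or more apart, no overlap between the arrays of the pools, and detection in at least 1 of them. Levels of different genes come from different probes and are not compared.

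In the osteoblast cultures, the IL-1 ligands were lowest after sham surgery, higher after SCI and highest after SCI+FES. Il1b, which encodes IL-1 beta, had levels of 7.71 and 7.92 in the sham pool, 10.77 and 10.83 in the SCI pool, and 11.95 and 11.90 in the SCI+FES pool. The 3 pools did not overlap. On the deposited linear scale the same probe read 179 and 234 after sham surgery, 1393 and 1734 after SCI, and 3606 and 4054 after SCI+FES. Il1b was 2.99 ± 0.11 higher in the SCI than in the sham pool, which is 7.93-fold. The SCI+FES pool was a further 1.12 ± 0.04 above the SCI pool, or 2.18-fold, and 4.11 ± 0.11 above the sham pool, or 17.2-fold.

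Il1a, which encodes IL-1 alpha, was not detected in the sham osteoblast pool, where its levels were 5.86 and 6.11. It was detected at 6.99 and 6.95 in the SCI pool and at 9.40 and 9.27 in the SCI+FES pool, and again no pools overlapped. The step from SCI to SCI+FES was 2.36 ± 0.07, a 5.14-fold higher level. Against the sham pool, where only a bound exists, the SCI+FES pool was at least 5.83-fold higher. The bound sets the brighter pool against the lowest detected level of each sham array. The SCI pool was at least 1.13-fold above sham by the same bound. Its measured difference of 0.98 ± 0.13 lay just under the size rule, and it passed in 7 of 11 alternative settings, where it ran from 1.001 to 1.94. Alternatives that change only the detection limit or the probe choice leave this difference as it is and could not change the outcome.

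In the osteoclast cultures the sham pool had the highest level of both ligands. Il1a levels were 11.24 and 11.23 in the sham pool, 10.15 and 10.02 in the SCI pool, and 10.48 and 10.46 in the SCI+FES pool. The SCI pool was thus lower than the sham pool by 1.15 ± 0.07, or 2.22-fold, and the SCI+FES pool lay between them, 0.77 ± 0.01 below sham. Il1b levels were 13.79 and 13.80, 13.17 and 13.11, and 13.19 and 13.33 in the same order, so that both injured pools lay below the sham pool with differences of -0.66 ± 0.03 and -0.54 ± 0.07, under the size rule. Il1a in SCI+FES against sham passed it, at -1.36, when arrays were set to a common median instead of common quantiles.

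**Figure D1:**
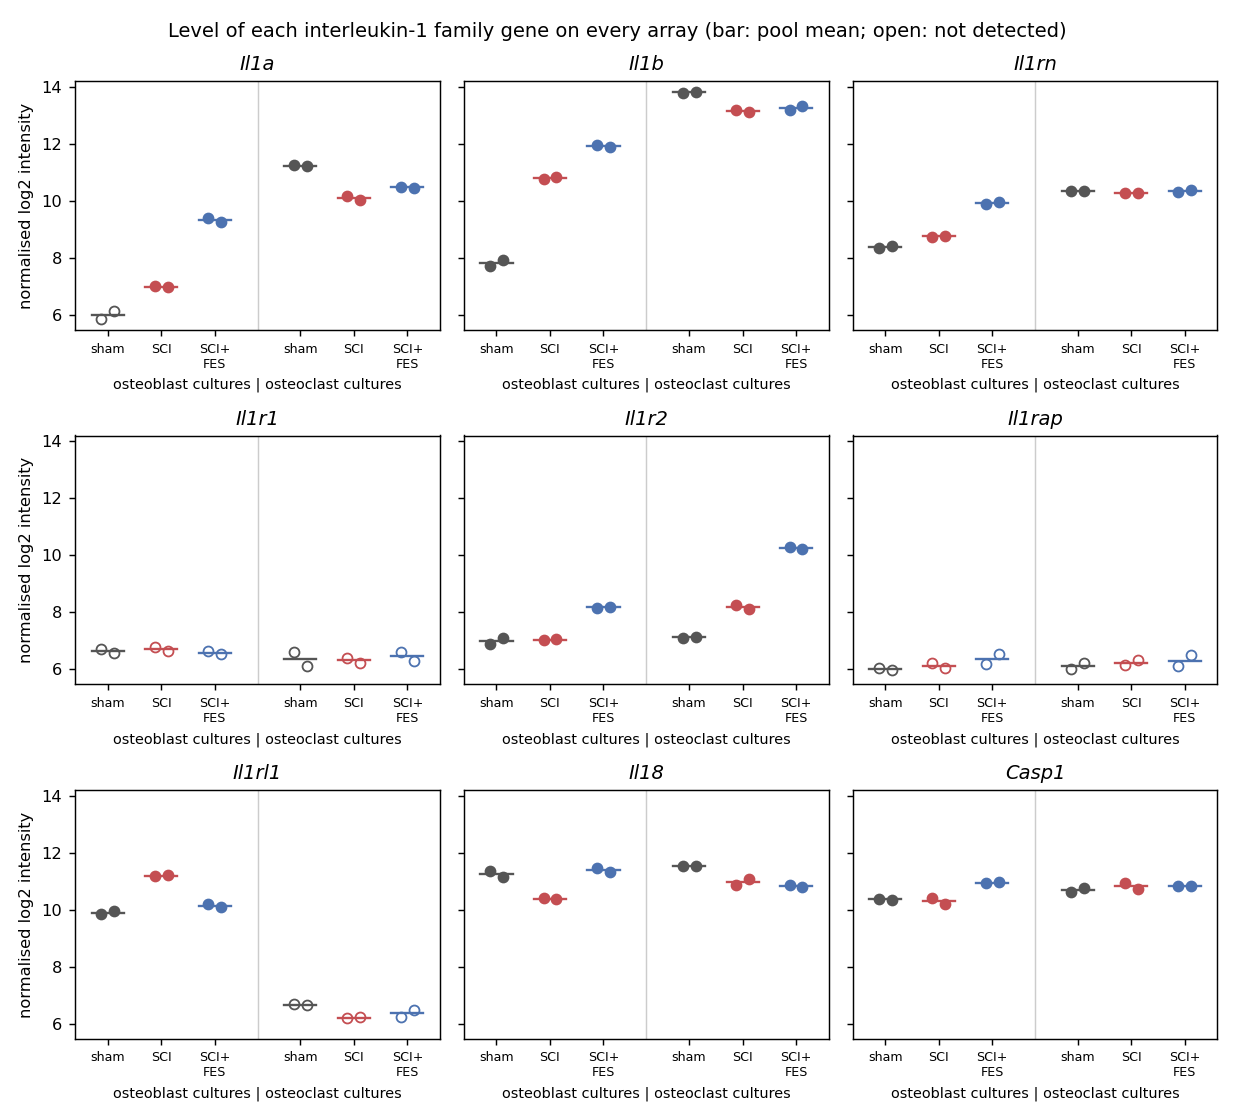
Normalised level (log2 intensity) of each of the 9 genes on the vertical axis, by pool on the horizontal axis, with 1 point per array and a bar at the pool mean; filled points mark detection and open points none. Il1b runs from a mean of 7.82 in sham osteoblast cultures to 13.80 in sham osteoclast cultures, and Il1rl1 is detected in the osteoblast pools only.

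Il18, which encodes the ligand IL-18, moved over a narrower range, and in the osteoblast cultures its lowest pool was SCI. Its levels there were 11.34 and 11.14 after sham surgery, 10.39 and 10.38 after SCI, and 11.45 and 11.33 after SCI+FES. The sham and SCI+FES pools overlapped. The difference of -0.86 ± 0.10 between SCI and sham did not reach the size rule, but did so at -1.06 with a common median. SCI+FES was 1.003 ± 0.06 above SCI, at the 2-fold limit itself, and this call was lost without array 1 of the SCI+FES pool (0.95) or array 2 of the SCI pool (0.99). In osteoclast cultures Il18 stood at 11.53 and 11.54, 10.86 and 11.06, and 10.85 and 10.78 for sham, SCI and SCI+FES. Both injured pools were below sham there, by differences of -0.58 ± 0.10 and -0.72 ± 0.04, which did not pass the size rule. The second of them passed, at -1.31, with a common median.

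Il1rn, which encodes the antagonist that occupies the IL-1 receptor without signalling, ordered the osteoblast pools as the ligands did. Its levels were 8.33 and 8.41 in the sham pool, 8.73 and 8.77 in the SCI pool, and 9.90 and 9.94 in the SCI+FES pool. The pools were apart, but only the steps to SCI+FES passed the size rule, at 1.17 ± 0.03 (2.25-fold) from SCI and 1.55 ± 0.05 (2.92-fold) from sham. In osteoclast cultures Il1rn hardly differed between treatments. All 6 of those arrays lay between 10.27 and 10.38, and pool means differed by at most 0.07.

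Across the 6 pools, the means of Il1a, Il1b and Il1rn ran together, with Pearson r of 0.96 for Il1a with Il1b, 0.99 for Il1a with Il1rn and 0.95 for Il1b with Il1rn. Il1rl1 ran the other way, at r = -0.81 with Il1a. These 6 points share 1 chip and fall into the 2 culture types, and r is a description. The 250 bases before the RefSeq start of each of these 4 genes are printed here, because the data bear on how the genes move together, with capitals marking matches to the motifs searched. The sequences are those of RefSeq on GRCr8, written 5′ to 3′ on the strand of the gene. The Il1a window is chr3:136990018-136990267 on the minus strand, the Il1b window chr3:137036582-137036831 on the minus strand, the Il1rn window chr3:27520072-27520321 on the plus strand, and the Il1rl1 window chr9:50203388-50203637 on the plus strand.
Il1a: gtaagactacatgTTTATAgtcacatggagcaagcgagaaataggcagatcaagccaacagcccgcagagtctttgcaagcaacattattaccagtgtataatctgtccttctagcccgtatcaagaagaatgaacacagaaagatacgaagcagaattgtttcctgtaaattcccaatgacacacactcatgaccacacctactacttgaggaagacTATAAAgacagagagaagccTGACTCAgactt
Il1b: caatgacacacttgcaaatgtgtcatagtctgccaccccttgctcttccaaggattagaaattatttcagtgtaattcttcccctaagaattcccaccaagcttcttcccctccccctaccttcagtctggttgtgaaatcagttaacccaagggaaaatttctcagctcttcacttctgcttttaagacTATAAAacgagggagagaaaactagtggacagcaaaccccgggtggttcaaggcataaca
Il1rn: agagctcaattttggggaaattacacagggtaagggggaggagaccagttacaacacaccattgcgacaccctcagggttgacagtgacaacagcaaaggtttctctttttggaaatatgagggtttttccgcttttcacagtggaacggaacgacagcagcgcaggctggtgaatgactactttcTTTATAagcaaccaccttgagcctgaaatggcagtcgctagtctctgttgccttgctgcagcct
Il1rl1: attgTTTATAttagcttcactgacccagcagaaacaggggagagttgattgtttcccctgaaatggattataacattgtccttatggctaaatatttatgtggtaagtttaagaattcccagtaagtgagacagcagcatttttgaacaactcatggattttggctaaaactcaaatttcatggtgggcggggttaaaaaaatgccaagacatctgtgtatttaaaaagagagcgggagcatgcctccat

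The motifs were searched on both strands, and none of the matches in these 4 windows overlapped another. The Il1a window held the AP-1 letters TGANTCA from 12 to 6 bases before the start and TATAAA from 32 to 27 bases before it, with a reverse-strand TATAAA, read as TTTATA, at 237 to 232. The Il1b window held TATAAA at 60 to 55 bases, and the Il1rn and Il1rl1 windows held its reverse at 64 to 59 and at 246 to 241 bases before the start. Of all 33469 windows of this length, 12.9% held TATAAA and 6.34% held TGANTCA. The letters of the NF-kB motif, found in 3.54% of all windows, those of C/EBP (TTGCNNAA, 9.22%) and those of the interferon gamma activated site (TTCNNNGAA, 7.67%) had no match in these 4 windows. Windows were available for 8 of the 9 genes, all but Il1r2. Among those not printed, the NF-kB letters matched at 135 to 126 bases before the start of Il1r1. They also matched in both windows of Il1rap, at 85 to 76 and at 166 to 157 bases. The Il18 and Casp1 windows held no match to any of the motifs. In the RefSeq order Il1a and Il1b are neighbours on chromosome 3, and Il1r1 and Il1rl1 flank Il1rl2 on chromosome 9.

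The signalling receptor was at the limit of the arrays in every pool. Il1r1, which encodes the receptor that transmits the IL-1 signal, read 6.10 to 6.79, and Il1rap, its accessory protein, 5.97 to 6.53, without passing detection on any of the 12 arrays. At this signal no difference between pools could be read for either gene.

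Il1r2, the decoy receptor that binds IL-1 without signalling, had its highest level in the SCI+FES pool of both culture types. In osteoclast cultures its levels were 7.09 and 7.14 after sham surgery, 8.25 and 8.12 after SCI, and 10.27 and 10.21 after SCI+FES, with no overlap. SCI was 1.07 ± 0.07 (2.10-fold) above sham, SCI+FES 2.06 ± 0.07 (4.16-fold) above SCI and 3.13 ± 0.04 (8.74-fold) above sham. In osteoblast cultures the sham and SCI pools overlapped, at 6.87 and 7.08 against 7.01 and 7.06, and SCI+FES stood above both at 8.16 and 8.18. That is 1.13 ± 0.03 (2.20-fold) above SCI and 1.20 ± 0.11 (2.29-fold) above sham.

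Some neutrophil markers were, like Il1r2, highest in the SCI+FES pool of the osteoclast cultures, but between sham and SCI the list did not follow it. Of the 10 neutrophil markers with a probe, 5 were detected in the sham osteoclast pool, 1 in the SCI pool and 6 in the SCI+FES pool. Their summed signal was 2346 to 2356 in the sham, 1803 to 1805 in the SCI and 5556 to 5611 in the SCI+FES osteoclast arrays. S100a8, a calcium-binding protein abundant in neutrophils, had mean levels of 9.31, 9.83 and 12.00 in that order, and the neutrophil collagenase Mmp8 had 7.08, 7.08 and 8.82. The chemokine receptor gene Il8rb was detected in the SCI+FES pool alone, at 7.70. S100a9 and Csf3r were not detected in any pool, and Np4 and Defa5 were detected in the sham osteoclast pool only, with mean levels of 8.38 and 9.18 there and 5.93 and 6.54 in the SCI pool. In the osteoblast pools at most 1 neutrophil marker was detected and the summed signal stayed between 785 and 906, also in the SCI+FES pool where Il1r2 was higher. In the sham, SCI and SCI+FES osteoclast pools, T cell markers summed to means of 1769, 1869 and 2455, in the order of Il1r2. By the size rule 0 of 4 detected were higher in SCI and 1 of 7 in SCI+FES than in sham. Macrophage markers summed to 76365, 75503 and 78597. Of 14 detected, 4 were higher in SCI and 5 in SCI+FES than in sham, with 0 lower. C1qb, 1 of them, had 10.29, 11.47 and 12.02. Over all genes 0.966% and 1.74% were higher. The part of these markers in the Il1r2 levels was not tested.

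Il1rl1, which encodes ST2, the receptor of IL-33, separated the culture types. It was detected on every osteoblast array and on no osteoclast array, where it read 6.18 to 6.69. Its osteoblast levels were 9.83 and 9.96 after sham surgery, 11.18 and 11.20 after SCI, and 10.20 and 10.08 after SCI+FES. The SCI pool was the highest, 1.29 ± 0.06 (2.45-fold) above sham, and the SCI+FES pool was lower than it by 1.05 ± 0.06 (2.07-fold). With a common median these came to 0.95 and -0.87, and without array 2 of the SCI+FES pool the second came to -0.98, all under the size rule. Both comparisons use the same SCI pool.

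The summed signal of osteoblast markers was also highest in the SCI pool of those cultures, and lowest in SCI+FES, where Il1rl1 was lowest in sham. Of 14 with a probe, 10 were detected in the sham, 12 in the SCI and 7 in the SCI+FES osteoblast pool, with summed signals of 80448 to 81716, 95859 to 99991 and 67902 to 67959. By the size rule 7 of 12 were higher in SCI than in sham and 8 of 12 lower in SCI+FES than in SCI. Over all genes the shares were 2.02% and 1.51%. Single markers differed from the sum, with Spp1 at mean levels of 14.19, 14.17 and 14.20 and Ibsp lowest in sham, at 7.92, 9.95 and 8.06. Mast cell markers, another cell type known for ST2, summed to 1053 to 1068, 1840 to 1881 and 2252 to 2367, which is highest in the SCI+FES pool, and 3 of 5 detected markers were higher in SCI than in sham. Cpa3 (7.36, 8.88 and 9.06) and Hdc (6.63, 7.79 and 8.79) followed the sum, while Cma1 had its highest level in SCI as Il1rl1 did (7.66, 8.37 and 7.86). Kit and Ms4a2 were not detected in any pool. The part of either marker list in the Il1rl1 levels was not tested.

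Casp1, the protease that matures IL-1 beta and IL-18, was detected on all 12 arrays at 10.20 to 10.96. Its largest treatment difference was 0.64 ± 0.11, from 10.41 and 10.20 in the SCI to 10.94 and 10.96 in the SCI+FES osteoblast pool. No treatment comparison of Casp1 passed the size rule.

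Set against all genes of each comparison, the counts of members were as follows. In osteoblast cultures SCI against sham had 2 of 7 detected members higher (Il1b and Il1rl1) and 0 lower, where 2.02% of 8281 genes were higher and 1.41% lower. SCI+FES against SCI had 5 of 7 higher (Il1a, Il1b, Il1rn, Il1r2 and Il18) and 1 lower (Il1rl1), beside 1.72% higher and 1.51% lower. SCI+FES against sham had 4 of 7 higher (Il1a, Il1b, Il1rn and Il1r2) and 0 lower, beside 4.27% and 3.29%. The shares of members above these backgrounds are counts within single pools, for genes chosen with earlier results of these data known. The median difference of the detected members was 0.38, 1.12 and 1.20 in the 3 comparisons, while the median of all detected genes was -0.02, 0.01 and -0.02.

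In osteoclast cultures, where 6 members were detected, SCI against sham had 1 higher (Il1r2) and 1 lower (Il1a), beside 0.966% and 1.87% of 7664 genes. SCI+FES against SCI had 1 of 6 higher, again Il1r2, which is 1 of only 23 genes (0.309%) that were higher, with 0 genes lower. SCI+FES against sham had 1 of 6 higher, Il1r2, and 0 lower, beside 1.74% and 2.42%. The medians of the members were -0.32, 0.09 and -0.27, and those of all genes 0.02, -0.01 and 0.00. Comparisons within a culture type share pools, so these counts are not independent of each other.

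**Figure D2:**
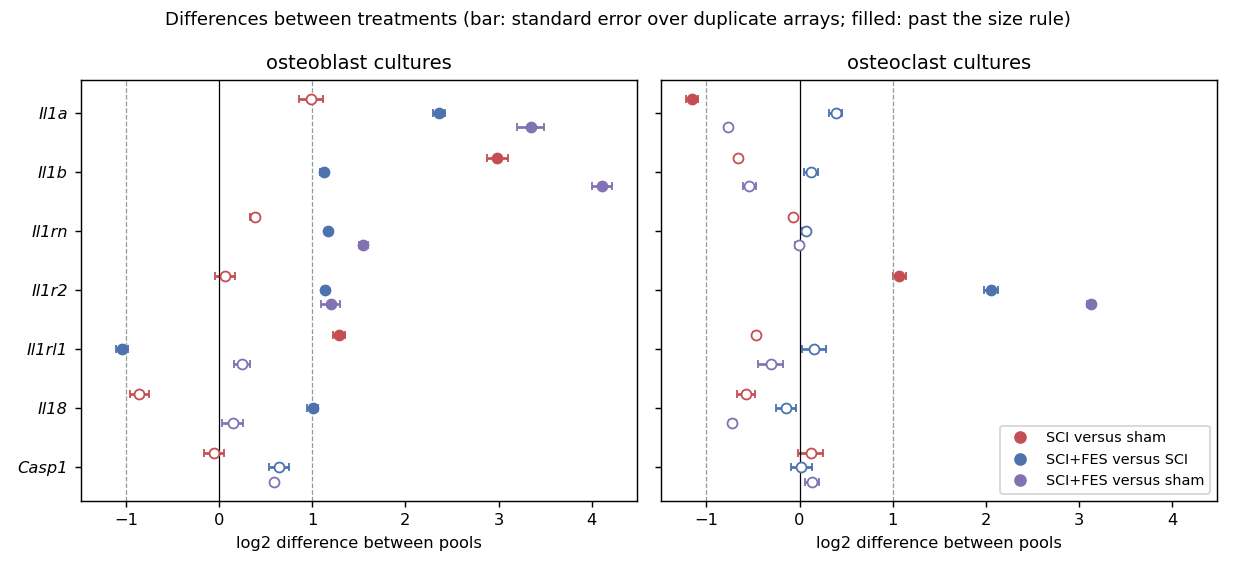
Difference between pool means (log2, horizontal axis) for the 7 detected genes in the 6 treatment comparisons, with bars of 1 standard error over duplicate arrays, dashed lines at the 2-fold limit and filled points past the size rule; Il1rl1 was not detected in osteoclast cultures. In osteoblast cultures Il1b differs by 2.99 between SCI and sham and by 4.11 between SCI+FES and sham, while in osteoclast cultures the largest difference is 3.13 for Il1r2.

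Osteoclast and osteoblast cultures were then compared over their 3 pools each, to ask which genes differ by culture type across treatments. The test was limma on pool means with Benjamini-Hochberg adjustment over 7871 genes detected in at least 3 pools, and a gene was called at an adjusted p of at most 0.05 and at least 2-fold. Of 7 members tested, Il1a, Il1b and Il1rn were higher and Il1rl1 was lower in osteoclast cultures, beside 5.53% of genes higher and 7.50% lower. The 3 pools of a side differ in treatment and the culture day differs with the culture type, so culture type and culture time cannot be told apart.

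Il1rl1 was 4.00 ± 0.33 lower on the log2 scale in osteoclast cultures, which is at least 11.0-fold, with a limma adjusted p of 0.000319. It was lower in all 3 treatments, and the call held when any pool was left out, with limma adjusted p between 0.000439 and 0.00343. Il1a rose by 3.16 ± 0.81 in limma (adjusted p = 0.0263), where 4 of the 6 osteoblast arrays detected it, Il1b by 3.22 ± 0.96 (adjusted p = 0.0429) and Il1rn by 1.31 ± 0.37 (adjusted p = 0.0363). For all 3 genes each osteoclast pool was above each osteoblast pool. With 1 pool left out in turn Il1a and Il1b each kept their call in 2 of 6 fits and Il1rn in 1 of 6. Leaving out the sham osteoclast, SCI osteoclast, SCI osteoblast or SCI+FES osteoclast pool left none of the 3 called, with limma adjusted p from 0.0622 to 0.121, although the differences stayed of similar size. They were 2.84 to 3.42 for Il1a, 3.02 to 3.53 for Il1b and 1.18 to 1.33 for Il1rn in those 4 fits, which have 5 pools in place of 6. Without the sham osteoblast pool Il1rn came to 0.99 with a limma adjusted p of 0.0695.

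Il1r2, Il18 and Casp1 did not pass between culture types in limma. Their differences were 1.12 ± 0.77 (adjusted p = 0.306), 0.10 ± 0.31 (adjusted p = 0.826) and 0.24 ± 0.18 (adjusted p = 0.348), with osteoclast cultures above in the mean. The sign for Il18 turned to -0.21 without the SCI osteoblast pool and to -0.12 without the sham osteoclast pool.

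The gap between culture types narrowed from sham to SCI to SCI+FES for the ligands and the antagonist. Osteoclast minus osteoblast level was 5.98, 2.34 and 1.34 for Il1b, and 1.97, 1.52 and 0.42 for Il1rn in that order. For Il1a, not detected in the sham osteoblast pool, the sham osteoclast pool was at least 21.7-fold higher, and the differences were 3.11 (8.64-fold) in SCI and 1.13 (2.19-fold) in SCI+FES. For Il1r2 it went from 0.14 through 1.15 to 2.07. Il1rl1, not detected in osteoclast cultures, was at least 7.82-fold, 18.9-fold and 8.94-fold lower there in the same order, and bounds have no ranking. Each of these values compares 1 pool with 1 pool and was not tested.

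**Figure D3:**
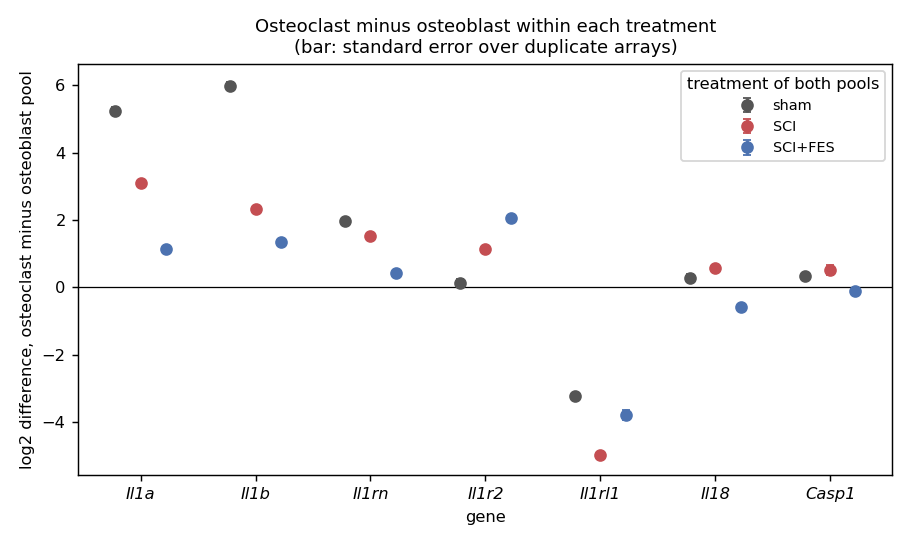
Osteoclast minus osteoblast level (log2, vertical axis) for the 7 detected genes, within sham, SCI and SCI+FES, with bars of 1 standard error over duplicate arrays. The gap falls from 5.98 to 1.34 for Il1b. The sham point of Il1a and all points of Il1rl1 are taken against levels that were not detected, so that only bounds hold for them.

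Of the other IL-1 family ligands, receptors and binding proteins, 12 of 17 had a probe and at most 4 were detected in a pool. Il33, the ligand of ST2, was detected in the osteoblast pools and not in the osteoclast pools. It was 1.19 ± 0.04 lower in the SCI than in the sham osteoblast pool (means of 7.01 and 8.20) and 1.20 ± 0.10 lower in SCI+FES than in sham, so in the SCI pool it was lower where its receptor Il1rl1 was higher. Il18bp, a secreted protein that binds IL-18, was higher in osteoclast than in osteoblast cultures by 1.04 ± 0.20 (limma adjusted p = 0.00833). That difference fell under 2-fold without the SCI osteoblast pool (0.90), without the sham osteoclast pool (0.88) and with a common median (0.84). No other gene of this list passed in any comparison. Il1rl2 and the IL-18 receptor genes Il18r1 and Il18rap were not detected in any pool.

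All 13 inflammasome and processing genes had a probe, and at most 9 were detected in a pool. In SCI against sham osteoblast cultures the inflammatory caspases Casp4 and Casp12 were lower by 1.44 ± 0.16 and 1.11 ± 0.02, as 2 of 8 detected genes, with none higher. Over all genes 1.41% were lower and 2.02% higher there. Casp12 was also 1.21 ± 0.04 lower in SCI+FES than in sham osteoblast cultures, and Casp4 1.02 ± 0.09 lower in SCI+FES than in sham osteoclast cultures, a call lost without array 2 of the sham pool (-0.94). Between culture types Mefv, which encodes the inflammasome sensor pyrin, rose by 2.34 ± 0.20 in osteoclast cultures (limma adjusted p = 0.000331). Mefv was not detected in the sham and SCI osteoblast pools, so the bound is at least 5.03-fold. Casp12, not detected in the osteoclast pools, fell by 2.22 ± 0.33 (limma adjusted p = 0.00338), with a bound of at least 3.25-fold. The sensor Nlrp3 was detected on all 12 arrays, with pool means of 7.26 to 7.81, and passed in no comparison.

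Genes of the IL-1 receptor signalling chain differed little. Of 20 listed, 18 had a probe, and 13 or 14 were detected in each comparison. None passed the size rule among the osteoblast pools, and in osteoclast cultures Traf6, the ubiquitin ligase downstream of the IRAK kinases, was lower by 1.04 ± 0.10 in SCI and by 1.08 ± 0.07 in SCI+FES than in sham. The SCI call was lost without array 2 of the SCI pool (-0.95) or array 1 of the sham pool (-0.99). The adaptor Myd88 was detected on all arrays, with pool means between 9.59 and 10.02. None of the 13 signalling genes tested passed between culture types in limma.

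Among genes known to be turned on by IL-1, some differed in the same direction as the ligands. Whether IL-1 acted on them in these cultures was not tested. In osteoblast cultures the chemokine gene Ccl2 was the only one of 13 detected genes higher in SCI than in sham, by 1.60 ± 0.13. Over all genes the share was 2.02%. In SCI+FES against SCI 5 of 14 were higher and 0 lower, beside 1.72% and 1.51% of all genes. They were led by Ptgs2, the inducible cyclooxygenase (1.74 ± 0.04), the chemokine Ccl20 (1.73 ± 0.22) and Sod2, the mitochondrial superoxide dismutase (1.40 ± 0.05), with Ccl2 at 1.11 ± 0.21. The call for Ccl2 was lost, at 0.90, without array 2 of the SCI+FES pool. In SCI+FES against sham 8 of 15 were higher and 1 lower, beside 4.27% and 3.29% of all genes. The higher ones were led by Ccl2 (2.71 ± 0.23), Ccl20 (at least 5.89-fold), Ptgs2 (2.53 ± 0.12) and Sod2 (2.18 ± 0.06), and the adhesion molecule Vcam1 was lower by 1.11 ± 0.02. The median of the list was 0.49, 0.73 and 1.14 in the 3 comparisons, beside -0.02, 0.01 and -0.02 for all genes.

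In osteoclast cultures SCI against sham had 6 of 12 detected genes lower and 0 higher, beside 1.87% and 0.966% of all genes. The neutrophil-attracting chemokines Cxcl1 and Cxcl2 differed by -2.82 ± 0.04 and -2.81 ± 0.04, Ptgs2 by -2.15 ± 0.05 and Zc3h12a, an RNase that degrades cytokine transcripts, by -1.18 ± 0.05. Lcn2 ran the other way, with mean levels of 9.92, 10.65 and 10.81 in the sham, SCI and SCI+FES pools, under the size rule. SCI+FES against SCI had 0 of 10 in either direction, beside 0.309% of all genes higher and 0 lower. SCI+FES against sham had 5 of 12 lower and 0 higher, beside 2.42% and 1.74% of all genes. Cxcl1 was at -2.33 ± 0.05, Cxcl2 at -2.15 ± 0.05 and Ptgs2 at -1.69 ± 0.06. The medians were -1.003, 0.18 and -0.84, beside 0.02, -0.01 and 0.00 for all genes. Between culture types Lcn2, Cxcl2 and Birc3 rose in osteoclast cultures by 3.87 ± 0.28, 2.64 ± 0.71 and 1.78 ± 0.46 (limma adjusted p = 0.000166, 0.0303 and 0.0259), and Vcam1 fell by 1.85 ± 0.29 (limma adjusted p = 0.00395). Lcn2 was not detected in the SCI and SCI+FES osteoblast pools, and Cxcl2 not in the sham osteoblast pool. Vcam1 was not detected in the SCI and SCI+FES osteoclast pools. The bounds for Lcn2, Cxcl2 and Vcam1 are at least 12.2-fold, 6.11-fold and 3.26-fold. With single pools left out, Cxcl2 lost its call without the SCI osteoblast, SCI+FES osteoclast or sham osteoblast pool (limma adjusted p from 0.0574 to 0.0946). Birc3 lost it in every such fit but that without the SCI+FES osteoblast pool (limma adjusted p from 0.0523 to 0.0879).

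**Figure D4:**
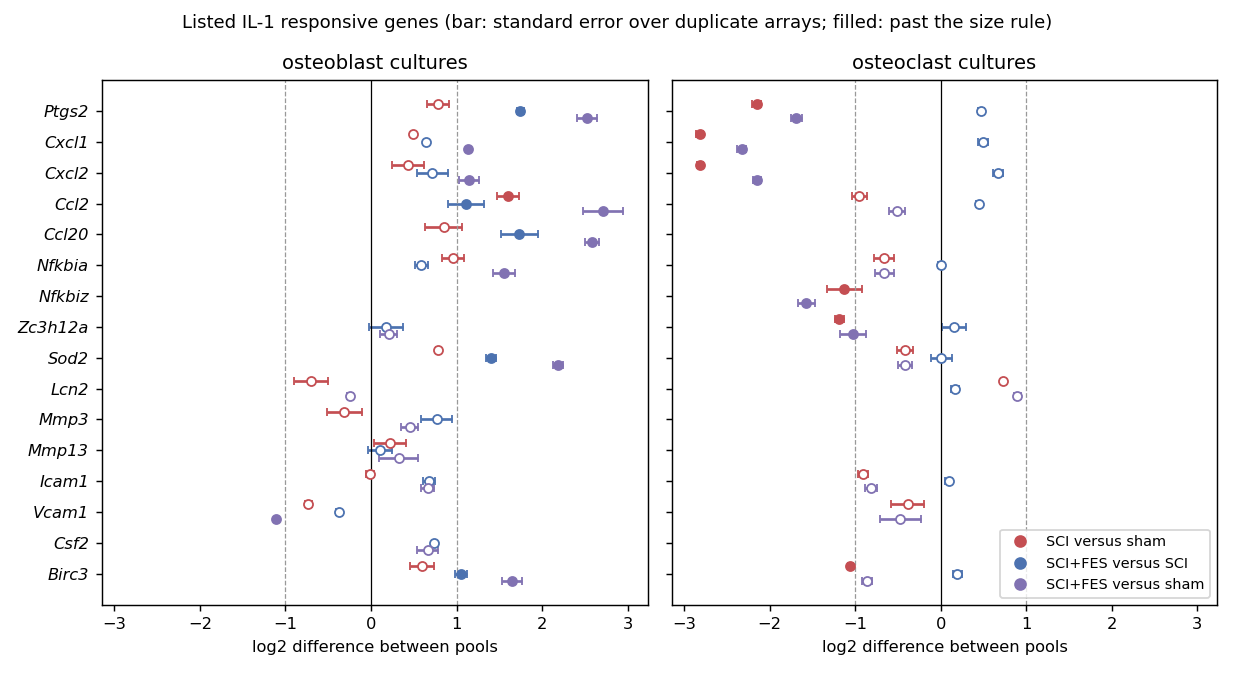
Difference between pool means (log2, horizontal axis) for listed IL-1 responsive genes, with osteoblast and osteoclast cultures in separate panels, bars of 1 standard error over duplicate arrays and filled points past the size rule; genes not detected in a comparison are left out of it. Ccl2, Ccl20, Ptgs2 and Sod2 are above 1 in SCI+FES against SCI osteoblast cultures, and Cxcl1, Cxcl2 and Ptgs2 are below -2 in SCI against sham osteoclast cultures.

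Among markers of other blood cells in the osteoblast cultures, the summed signal of the 15 macrophage markers was 95112 to 96443 in the sham, 89202 to 91054 in the SCI and 120737 to 125743 in the SCI+FES arrays. In SCI+FES against SCI 4 of 15 were higher, with Fcgr2b at 1.61 ± 0.15, Cd163 at 1.47 ± 0.09, Fcgr3a at 1.21 ± 0.03 and Cd14 at 1.16 ± 0.07, and in SCI against sham 0 of 15 differed by the size rule. T cell markers summed to 2959 to 3116, 3270 to 3382 and 11169 to 11585, with 8 of 8 detected markers higher in SCI+FES than in SCI and 2 of 8 higher in SCI than in sham. Cd5 and Cd28 were not detected in any osteoblast pool. Over all genes 1.72% were higher in SCI+FES than in SCI and 2.02% higher in SCI than in sham. In osteoclast cultures 4 of 14 macrophage markers were higher in SCI than in sham, led by Emr1 (means of 10.63 and 8.65), and 0 were lower. Of 4 detected osteoblast markers 1 was lower there, Col1a2 (8.67 and 10.92), and 0 were higher. Over all genes 0.966% were higher and 1.87% lower. The part of these markers in the levels of Il1a, Il1b, Il1rn, Il18 and the IL-1 responsive genes was not tested.

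The genes whose pool means followed each member most closely were sought among 2550 genes whose means spanned at least 1 on the log2 scale, by Pearson r over the 6 pools. They were Igtp (r = 0.996), Gch1 and Slc1a5 for Il1a, Tiam1 (r = 0.991), Spn and Mx2 for Il1b, and Myo1g (r = 0.997), RGD1563748 and a gene whose symbol the file gives as a date for Il1rn. For Il1r2 they were LOC497748 (r = 0.979), Prf1 and Fcar, and for Il1rl1 Egr1 (r = 0.999), Pdlim7 and Akap2. The closest to Il18 was LOC365566 (r = 0.967), followed by isg12(b) and Mca32. With 6 points that fall into 2 culture types, values this high describe the pools and carry no test.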

How the data were processed

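Gene expression was measured on Illumina rat arrays in 6 RNA pools, each on 2 arrays. Per the labels, biotinylated cRNA was made with a MessageAmp kit. The scanner software is not given in the sources used here. Per the file headers, the deposited table holds, for 22523 probes, intensity values and p-values of detection. Between 26.8% and 30.4% of the deposited intensity values were below 0, so a background had been subtracted by the authors or their scanner. The deposited detection p-value moves in steps of 1 over 825. The authors' value table is a linear rescaling of these intensity values, with a slope of 0.731 to 1.42 per array, r = 1 and column medians of 13.8 to 19.1. How slope and shift were set stays unknown.

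Intensities were corrected with normexp (offset 50), quantile normalised over 12 arrays and put on the log2 scale, in R 4.3.3 with limma 3.58.1. Tables and figures used Python 3.11.15 with numpy 2.4.6, pandas 2.3.3 and matplotlib 3.10.9. The offset understates folds of dim genes. Of the probes, 10291 carried a current RefSeq symbol, 11 were matched through a synonym, 12104 kept the symbol of the file and 117 had none. A gene with several probes was represented by its brightest probe, which concerns no member.

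Treatment comparisons used the size rule, and culture types limma on pool means. Few arrays and single pools limit the precision. Genes named beyond the 9 members are those of the fixed lists that passed a comparison, at most 4 a list and comparison, the 3 genes most like each member, and cell type markers. A few list genes that passed no comparison, such as Nlrp3, Myd88 and Il1rl2, and Vcam1 in SCI+FES against sham were named after their values were seen. The members and lists were chosen with earlier results of these data known. Alternatives changed the offset, background method, scaling, detection limit, probe choice and covariates, used the authors' values, and left out arrays or pools.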

Additional observations from a re-analysis of the deposited data

Results flagged for a closer look

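Several genes differed in opposite directions in the 2 culture types under the same comparison, with both arrays of a pool on the same side. The difference between culture types was not tested, since each side is 1 pool. For SCI against sham, Il1b differed by 2.99 in osteoblast and -0.66 in osteoclast cultures. Il1a differed by 0.98 and -1.15 in that comparison, and Il1rn by 0.38 and -0.0695. The osteoclast value of Il1rn is smaller than the pooled SD of duplicate arrays, 0.10, so it shows no clear reversal. For SCI+FES against sham, the differences were 4.11 and -0.54 for Il1b and 3.35 and -0.77 for Il1a. Il1a was not detected in the sham osteoblast pool, so its differences of 0.98 and 3.35 stand for bounds of at least 1.13-fold and at least 5.83-fold. For SCI+FES against SCI, Il18 differed by 1.003 in osteoblast and -0.14 ± 0.11 in osteoclast cultures. The nearest arrays of those osteoclast pools read 10.86 and 10.85, so this sign is also near the spread of duplicates.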

How the results depend on the processing

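Of 16 member calls in the treatment comparisons, 13 held in all 11 alternatives. Alternatives that only loosened or dropped the detection limit leave the differences unchanged and could not lose a call. Changing the probe choice could not either, since each member has 1 probe. The other 3 were Il1rl1 in SCI against sham and in SCI+FES against SCI, and Il18 in SCI+FES against SCI, all in osteoblast cultures. A common median in place of quantiles gave 1 member lower (main value 0) in SCI against sham osteoblast cultures, 0 lower (main value 1) in SCI+FES against SCI osteoblast cultures, and 2 lower (main value 0) in SCI+FES against sham osteoclast cultures. Leaving out single arrays gave 0 to 1 lower in SCI+FES against SCI osteoblast cultures. Between culture types, 1 member was higher with no detection filter (3 with it), and leaving out single pools gave 0 to 3. The Il18 difference then ran from -0.21 to 0.29, and was -0.12 without the sham osteoclast pool. Over the other settings the limma adjusted p ran from 0.00145 to 0.0725 for Il1b, from 0.00128 to 0.0581 for Il1rn and from 0.000475 to 0.0428 for Il1a. Of the IL-1 responsive genes, 1 to 4 were higher in SCI against sham osteoblast cultures, 5 to 8 in SCI+FES against SCI osteoblast cultures, and 5 to 9 lower in SCI+FES against sham osteoclast cultures over these settings. The causes were not tested.

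Values here are in the order SCI against sham, SCI+FES against SCI, and SCI+FES against sham. With the common median, the median difference of detected genes was -0.22, 0.08 and -0.155 in the osteoblast comparisons, where the main values were -0.02, 0.01 and -0.02. In the osteoclast comparisons it was -0.07, -0.35 and -0.40, where the main values were 0.02, -0.01 and 0.00. The share of calls that were higher went from 58.8% to 30.7%, from 53.2% to 63.4% and from 56.5% to 41.0% in osteoblast cultures. In osteoclast cultures it went from 34.1% to 22.3%, from 100% to 81.2% and from 41.8% to 6.68%. In SCI+FES against SCI osteoclast cultures it was 86.3% with neqc, 80.5% with log2 of signal plus 16 and 83.8% with the authors' values. Over the settings the genes higher and lower numbered 95 to 423 and 117 to 335, 141 to 325 and 93 to 324, and 286 to 735 and 277 to 636 in the 3 osteoblast comparisons. The osteoclast comparisons gave 61 to 245 and 144 to 356, 13 to 83 and 0 to 16, and 49 to 404 and 186 to 685.

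With the array number as a replicate block and the pool as a random block, 471 genes were higher and 623 lower in osteoclast cultures (435 and 590 without), and the same 3 members higher and 1 lower. Duplicate differences correlated at -0.07 to 0.14 between pools, so array numbers do not pair the pools. Signals near background limit Il1r1 and Il1rap, and 1 pool a side limits every treatment comparison.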
